A study of Homo sapiens with 3 samples.

Results

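The 10 genes described here are DPPA2, DPPA3, DPPA4 and DPPA5, members of the developmental pluripotency-associated group, and ZFP42, UTF1, ZSCAN10, L1TD1, TERT and ZNF281, which are also associated with pluripotent cells. Their EP300 peaks were taken by name, as every row of both deposited peak tables that the authors assigned to 1 of these genes. Rows with the same interval, which are separate summits of 1 peak, were joined. This gave 34 of 65276 peaks in replicate 1, from 47 rows, and 24 of 64896 peaks in replicate 2, from 41 rows. All 10 genes had a peak in each table, among 29697 gene names in both tables together.

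The peaks come from chromatin immunoprecipitation with an antibody against EP300 and sequencing, in wild-type H9 cells, an established line of human embryonic stem cells. The cells were kept in the naive state in PXGL, a medium that combines the MEK inhibitor PD0325901, the tankyrase inhibitor XAV939, the protein kinase C inhibitor Go 6983 and human LIF, on mouse embryonic fibroblast feeders. There were 2 EP300 samples of this 1 group and 1 input sample, so no groups could be compared and no test was made. The labels do not say whether the EP300 samples were separate cultures, so differences between them may be technical. The tables give no read counts and the sequencing depth is unknown.

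EP300 is a histone acetyltransferase that is brought to DNA by transcription factors and acetylates histones at active promoters and enhancers. A peak marks where EP300 was crosslinked and says nothing directly about the RNA of the gene. In naive human pluripotent cells DPPA3 and DPPA5 are in common use as state markers. L1TD1, ZSCAN10 and TERT are expressed in pluripotent cells more widely. In these lists all 5 of 5 general pluripotency markers (POU5F1, SOX2, NANOG, SALL4 and LIN28A) and 6 of 7 naive markers had an annotated promoter peak in both replicates, ARGFX being the exception. The naive list itself holds DPPA3 and DPPA5. All 6 of 6 primed markers and 4 of 7 fibroblast markers (not COL3A1, LUM or DCN) had one too, THY1 being in both of these lists. Of all 19970 coding genes, 67.7% had such a peak. The part of the feeder cells in the peaks was not tested.

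The DNA before the start site is shown for 6 of the genes, namely the 4 with the strongest promoter peaks and the 2 with no peak over the start used here in either list. Capitals mark motif matches that end before the start. Each run is the 250 bases before the RefSeq start, 5′ to 3′ on the strand of the gene (RefSeq, GRCh38.p14, all 10 genes matched). TERT lies at chr5:1295069-1295318 (minus strand), ZSCAN10 at chr16:3099295-3099544 (minus), L1TD1 at chr1:62194599-62194848 (plus), UTF1 at chr10:133229967-133230216 (plus), DPPA3 at chr12:7711183-7711432 (plus) and DPPA4 at chr3:109337547-109337796 (minus). The motifs were searched on both strands.
TERT: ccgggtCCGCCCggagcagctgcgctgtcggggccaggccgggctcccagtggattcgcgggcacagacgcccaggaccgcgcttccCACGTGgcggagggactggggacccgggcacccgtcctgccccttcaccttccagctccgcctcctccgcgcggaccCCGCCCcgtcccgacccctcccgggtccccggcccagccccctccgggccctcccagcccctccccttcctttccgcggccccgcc
ZSCAN10: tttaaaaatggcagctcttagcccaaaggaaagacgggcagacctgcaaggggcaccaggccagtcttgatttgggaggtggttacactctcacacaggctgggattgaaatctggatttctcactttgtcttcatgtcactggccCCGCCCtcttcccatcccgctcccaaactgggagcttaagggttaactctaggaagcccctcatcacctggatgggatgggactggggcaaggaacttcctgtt
L1TD1: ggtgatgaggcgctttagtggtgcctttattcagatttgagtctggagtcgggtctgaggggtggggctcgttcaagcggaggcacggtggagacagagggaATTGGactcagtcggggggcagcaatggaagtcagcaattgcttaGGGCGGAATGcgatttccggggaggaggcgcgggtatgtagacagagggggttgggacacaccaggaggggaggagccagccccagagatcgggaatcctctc
UTF1: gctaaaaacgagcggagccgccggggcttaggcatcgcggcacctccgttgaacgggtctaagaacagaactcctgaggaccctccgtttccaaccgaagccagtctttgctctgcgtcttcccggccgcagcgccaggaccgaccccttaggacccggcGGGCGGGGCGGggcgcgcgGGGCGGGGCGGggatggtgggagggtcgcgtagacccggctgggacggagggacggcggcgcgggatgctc
DPPA3: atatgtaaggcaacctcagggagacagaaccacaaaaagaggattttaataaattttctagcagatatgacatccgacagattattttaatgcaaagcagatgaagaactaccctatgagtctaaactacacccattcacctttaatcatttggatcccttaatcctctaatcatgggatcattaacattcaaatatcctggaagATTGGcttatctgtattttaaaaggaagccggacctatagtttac
DPPA4: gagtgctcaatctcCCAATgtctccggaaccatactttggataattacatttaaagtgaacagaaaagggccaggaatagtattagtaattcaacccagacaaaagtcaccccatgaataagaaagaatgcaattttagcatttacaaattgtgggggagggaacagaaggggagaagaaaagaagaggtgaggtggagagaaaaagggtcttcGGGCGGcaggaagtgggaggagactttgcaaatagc

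All 250 bases of the TERT, ZSCAN10, L1TD1 and UTF1 runs lay inside a peak in both replicates, and 0 bases of the DPPA3 and DPPA4 runs did in either. The GC box GGGCGG, a site type bound by factors of the SP family, was in the 300-base window (250 before to 50 after the start) of 8 of the 10 genes, all but DPPA2 and DPPA3, and in 44.7% of 27195 RefSeq windows. These windows include those of non-coding genes, and only 15811 coding genes had one. The shares of all windows given here are thus not shares of coding genes, and the share among coding genes was not computed. UTF1 had 4 such boxes before its start, in overlapping pairs. DPPA5 and ZFP42 had 3 each. The E box CACGTG was in the TERT window alone of the 10, and in 7.45% of all windows. The KLF type motif GGGTGTGG was in the DPPA2 window (3.22% of all windows), and the TFAP2 type motif GCCNNNGGC was in those of DPPA5 and ZFP42 (23.1%). The TEAD type motif GGAATG was in the L1TD1 window (14% of all windows), where it overlaps the GC box. CCAAT was in 5 windows, those of DPPA3, DPPA4, ZFP42, L1TD1 and ZNF281 (35.7%). The octamer ATGCAAAT (1.8% of all windows), the AP-1 type motif TGANTCA (7.73%) and the palindromic NRF1 type motif (1.36%) were in 0 of the 10.

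All 10 genes had an annotated promoter peak, meaning a peak the authors placed within 3 kb of a start site, that overlapped between the replicates by at least 1 bp. This was also the case for 67.7% of 19970 coding genes. DPPA3 no longer had one at a fold enrichment or a -log10 q-value of 5 or more, or within 1 kb of a start. Strength is given as the authors' fold enrichment at the summit and as its percentile among all peaks of the same list. The median percentile of the strongest promoter peak was 71.7 in replicate 1 and 71.5 in replicate 2 over the 10 genes. Over all coding genes with a promoter peak (14120 and 14116) it was 82.2 in both lists. In fold enrichment the medians were 6.54 and 6.62 for the 10 genes, against 8.67 and 8.84.

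**Figure D1:**
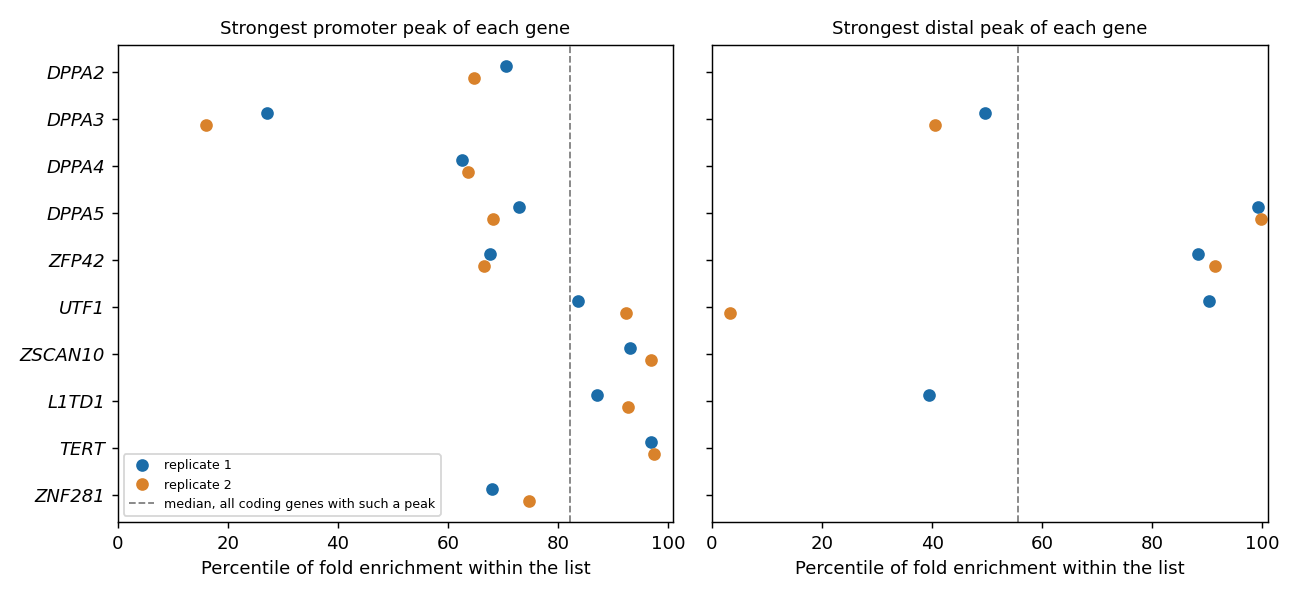
Percentile of fold enrichment (horizontal axis, 0 to 100 within each list) of the strongest promoter peak (left) and strongest distal peak (right) of each of the 10 genes, with replicate 1 in blue and replicate 2 in orange; the dashed line is the median over all coding genes with such a peak, averaged over the lists. TERT, ZSCAN10, L1TD1 and UTF1 lie to the right of the promoter line, the other 6 genes to its left, and a missing point means that no such peak was listed.

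The promoter peaks are described here as a strong and a weak set. TERT, ZSCAN10, L1TD1 and UTF1 had fold enrichments of 9.11 or more in both lists. The UTF1 value in replicate 2, 12.7 fold, is that of an upstream region with its summit 4635 bp before the start. The UTF1 peak over the start had 9.11 and 11.2 fold, and the replicate 1 value was near the coding gene median of 8.67. DPPA2, DPPA4, DPPA5, ZFP42 and ZNF281 lay between 5.41 and 7.14, and DPPA3 was lowest in both. The DPPA5 value is that of a region 2 to 3 kb from the start. Within 1 kb its peak had 4.0 and 3.29 fold, near the 3.56 and 3.14 of DPPA3. The sets were drawn from these same values and only describe them.

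TERT, the catalytic subunit of telomerase, had the strongest promoter peak of the 10 genes. The gene occupies bases 1253167 to 1295068 of chromosome 5 and is read from the minus strand. Its peak over the start spanned 1294032 to 1296151 in replicate 1 and 1294097 to 1296136 in replicate 2. It was enriched 16.2-fold and 17.3-fold, at percentiles 96.9 and 97.4, and its -log10 q-values were 92.0 and 109. It ranked 1643rd and 1387th among the promoter peaks of its list. The peak had a pair of summits, 267 and 255 bp inside the gene (16.2 and 17.3 fold) and 298 and 341 bp upstream (9.90 and 12.1 fold). The RefSeq start and the run shown above lie between these summits. A second TERT peak, at 2.50 fold, was listed in replicate 2 alone. The next regions found in both lists lay 18.6 and 19.9 kb upstream and were assigned to MIR4457, at 4.29 and 4.34 fold in replicate 1. No distal TERT peak was listed in either replicate.

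ZSCAN10, a SCAN domain zinc finger transcription factor of embryonic stem cells, had the next strongest. The gene occupies bases 3088890 to 3099294 of chromosome 16, minus strand. Its strongest summit lay 242 bp inside the gene in replicate 1, at 12.9 fold and percentile 93.1, and 264 bp inside in replicate 2, at 16.6 fold and percentile 96.9. Another summit lay 540 and 547 bp upstream, at 7.71 and 7.51 fold. Replicate 1 listed the DNA around the start as 2 peaks of 1612 and 1510 bp, and replicate 2 as 1 peak of 3414 bp (3096840 to 3100253). A further promoter region 1 to 2 kb upstream by the authors' classes reached 7.56 and 8.39 fold, with its strongest summits 779 bp apart between the lists. ZSCAN10 thus had several summits on either side of its start and no distal peak assigned to it.

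L1TD1, an RNA-binding protein gene that derives from a LINE-1 element, had a promoter peak of 10.2 fold in replicate 1 and 13.0 fold in replicate 2, at percentiles 87.1 and 92.8. The gene lies on the plus strand of chromosome 1 at 62194849 to 62212328. The summits were 246 and 284 bp inside the gene, and weaker ones lay 908 and 931 bp upstream at 4.01 and 4.37 fold. A smaller peak 1 to 2 kb into the gene was in both lists at 5.12 and 3.77 fold, and an intronic peak of 3.97 fold was in replicate 1 alone. Between 7.8 and 17.5 kb upstream there were 6 regions found in both lists that the authors assigned to PIGPP2 and not to L1TD1, the strongest at 6.41 and 5.11 fold.

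UTF1, a chromatin-associated transcription factor of undifferentiated cells, had the widest peak over a start of the 10 genes in replicate 1. The gene spans only 133230217 to 133231558 on the plus strand of chromosome 10, and its peak ran from 133229248 to 133232433 in replicate 1 and from 133229408 to 133232229 in replicate 2, so it covered the whole gene. Widths were 3186 and 2822 bp, at percentiles 98.6 and 97.5 of width. Fold enrichment was 9.11 and 11.2, at percentiles 83.7 and 89.1, with the strongest summit 452 and 714 bp inside the gene. A second, stronger UTF1 region lay upstream, with its summit 4460 bp before the start in replicate 1 (11.5 fold, percentile 90.3) and 4635 bp before it in replicate 2 (12.7 fold, percentile 92.3). The authors' annotation placed it in a 3' UTR in replicate 1, at the end of the neighbouring gene KNDC1, and in the promoter class at 2 to 3 kb in replicate 2. Replicate 1 listed this region as 2 peaks and replicate 2 as 1 peak of 3413 bp that reached closer to UTF1, so it was the 1 region of mixed class. A region assigned to the neighbouring homeobox gene VENTX, 7.8 kb downstream of the UTF1 start, stood at percentiles 98.9 and 99.0, above both UTF1 regions in each list.

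ZNF281, a zinc finger factor known to limit NANOG expression, had a single peak in each list. It spanned 200409140 to 200410023 on chromosome 1 in replicate 1 (6.06 fold, percentile 68.1) and 200409228 to 200410115 in replicate 2 (7.14 fold, percentile 74.7). The summits, 345 and 357 bp inside the gene, were 12 bp apart. Ranked by -log10 q-value the peak stood higher, at percentiles 81.7 and 85.4. No other region found in both lists lay within 20 kb of its start.

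DPPA2 and DPPA4 encode SAP domain proteins that act as a pair and activate early embryonic genes, and they are neighbours on the minus strand of chromosome 3. DPPA2 (109293788 to 109316517) had a promoter peak of 6.36 and 5.69 fold, at percentiles 70.5 and 64.8, with summits 383 and 287 bp inside the gene. It covered the start in replicate 2 alone. DPPA4 had a peak of 5.41 and 5.53 fold, at percentiles 62.5 and 63.6, with summits 456 and 561 bp inside the gene. Both genes were thus moderate and close to each other in each list. Replicate 1 alone listed 2 more promoter peaks at DPPA2, at 2.45 and 3.83 fold. Neither gene was assigned a distal peak.

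The assignment of each peak to 1 gene touches DPPA4. The RefSeq extent of DPPA4 reaches 109339636, beyond the start used here at 109337546. A region from 109338160 to 109339943, found in both lists at 6.20 and 6.36 fold, covers the upstream end of this extent but was assigned to ENSG00000289358. This region was stronger than the DPPA4 peak itself in each list. The lack of a peak over the DPPA4 start thus holds only for the start used here. The next region upstream, 3.5 kb from the start and assigned to the same identifier, reached 4.90 fold in replicate 1 and 8.73 in replicate 2.

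ZFP42, also known as REX1, a zinc finger gene long used as a marker of undifferentiated cells, combined a moderate promoter peak with a stronger distal one. The gene lies on the plus strand of chromosome 4 at 187995771 to 188005246. Its promoter peak was 2709 and 2562 bp wide, with 5.97 and 5.90 fold at percentiles 67.7 and 66.6. The peak had a summit 359 and 276 bp upstream (5.91 and 5.90 fold) and another 1257 and 1236 bp inside the gene (5.97 and 3.66 fold). The near-equal heights in replicate 1 put the strongest summits of the lists 1533 bp apart, the largest gap among the 20 regions found in both.

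The distal ZFP42 region spanned 188031189 to 188033411, with its summit 37.22 kb beyond the start in replicate 1 and 37.23 kb in replicate 2, in DNA annotated as intergenic. Fold enrichment was 10.6 and 12.3, at percentiles 88.3 and 91.5, and the summits of the lists were 13 bp apart. Around it replicate 1 listed 5 weak peaks, from 2.81 to 3.72 fold, that replicate 2 did not. Only the promoter region and this distal region were found in both lists within 100 kb of the ZFP42 start.

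DPPA5, which encodes a small KH domain RNA-binding protein, had the strongest peak of all those assigned to the 10 genes, and it was distal. The gene spans 73353063 to 73354276 on the minus strand of chromosome 6. The distal peak lay beyond its 3' end, from 73347413 to 73349324 in replicate 1 and from 73347848 to 73349342 in replicate 2. It was enriched 22-fold and 28.1-fold, at percentiles 99.3 and 99.8, and its -log10 q-values were 95 and 115. It ranked 438th and 112th in its list, and 75th and 25th among peaks outside promoters. The summits lay 5457 and 5390 bp from the start, 67 bp apart.

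Closer to DPPA5 the peaks were weaker. A region in the 2 to 3 kb promoter class, also beyond the 3' end, reached 6.72 and 6.10 fold with 3 summits in each list. The peak over the start itself had 4.0 fold in replicate 1 and 3.29 in replicate 2, at percentiles 39.6 and 18.9. By -log10 q-value that peak stood at percentiles 64.4 and 61.4. A weak distal peak, at 2.81 and 3.98 fold, lay 9.34 and 9.12 kb from the start. On the other side the maternal-effect genes KHDC3L and OOEP had regions of 4.92 and 5.33 fold in replicate 1, and 3.33 and 4.82 fold in replicate 2. Enrichment at DPPA5 thus rose from the start to the nearer region beyond the 3' end, then to the strong distal peak, in both lists. The weak distal peak lay below the start peak in replicate 1 and above it in replicate 2.

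DPPA3, also known as STELLA, a maternal factor that guards the DNA methylation pattern of the early embryo, was assigned weak peaks only. The gene lies on the plus strand of chromosome 12 at 7711433 to 7717559. Its 1 promoter region, 1 to 2 kb inside the gene, had 3.56 and 3.14 fold, at percentiles 27.1 and 16.0. Of its distal regions, 3 were in both lists: 1 inside the gene at 4.42 and 4.06 fold, 1 just past its 3' end at 4.50 and 3.49 fold, and 1 upstream at 2.87 and 3.68 fold. None of the DPPA3 peaks reached the median of its list, 4.51 fold in each. Replicate 1 placed the region inside the gene in an exon and replicate 2 in an intron. The neighbouring growth factor gene GDF3 had 2 regions within 20 kb of the DPPA3 start, at 5.61 and 7.37 fold and at 5.93 and 5.00 fold. A strong region 71.5 kb upstream, at 17.4 and 18.6 fold (percentiles 97.8 and 98.1), was assigned to ENSG00000285142.

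**Figure D2:**
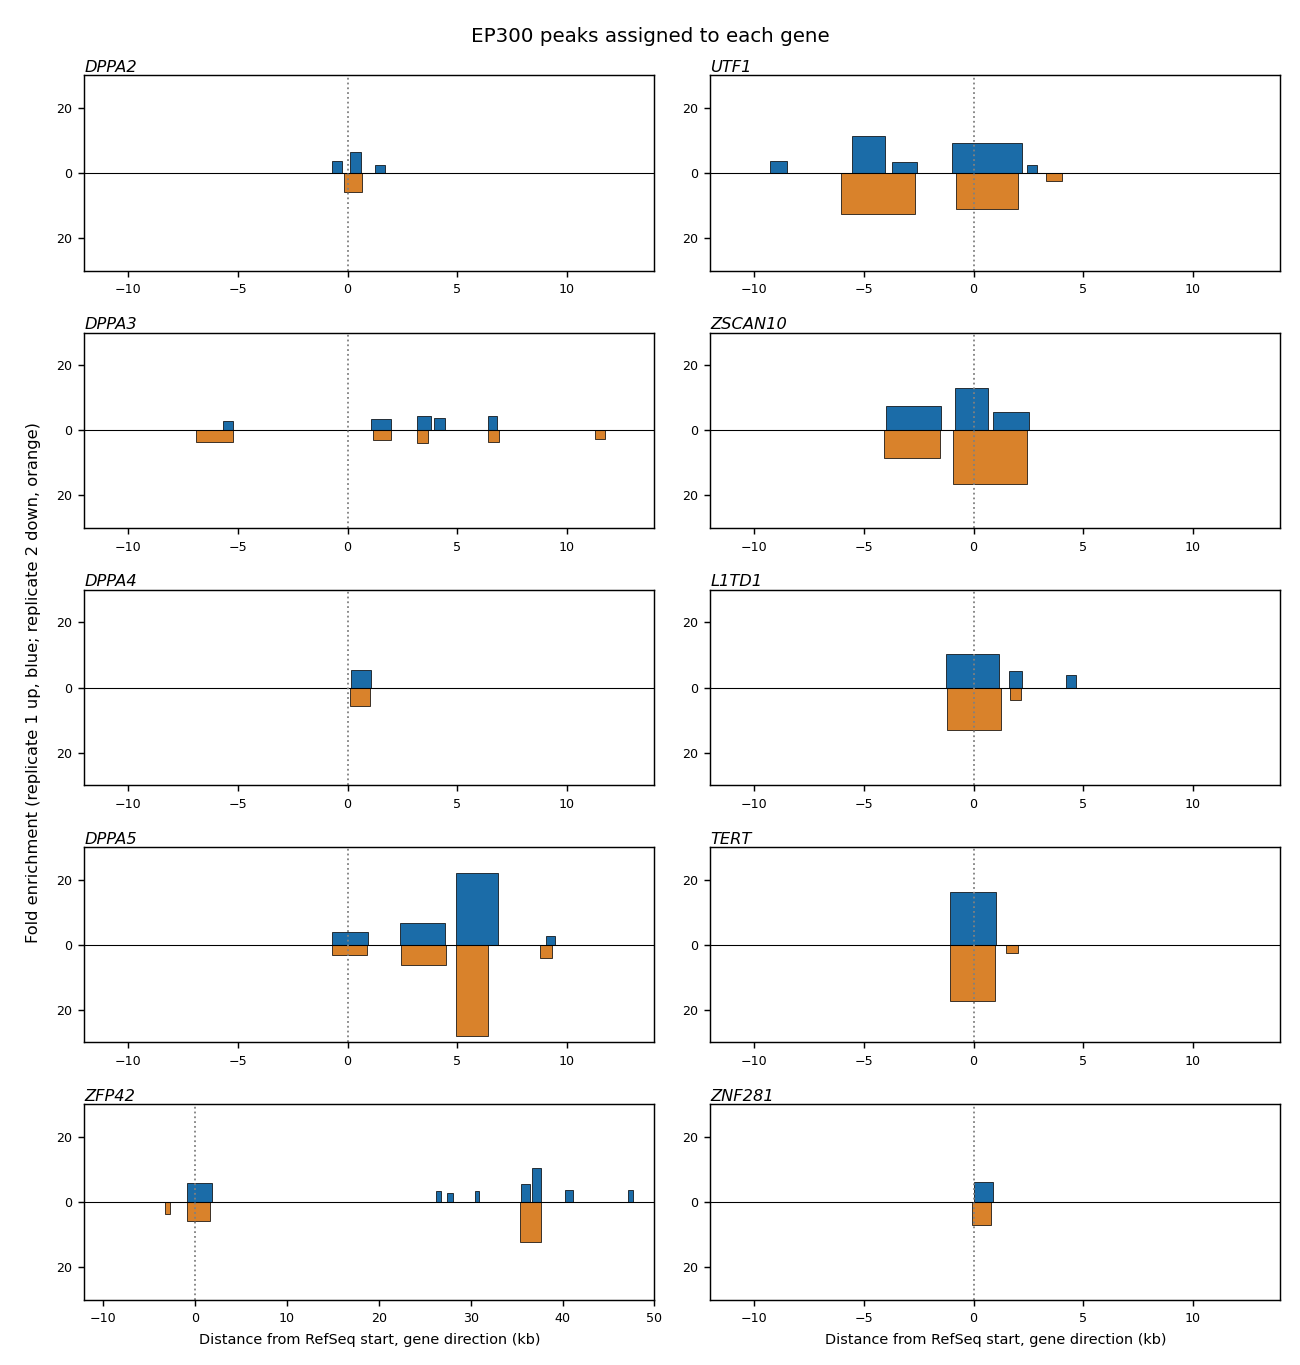
Peaks assigned to each of the 10 genes by distance from the RefSeq start in the direction of the gene (horizontal axis, kb; the ZFP42 panel reaches 50 kb), with the width of a bar equal to the width of the peak and its height the fold enrichment of the strongest summit, replicate 1 upward in blue and replicate 2 downward in orange. The tallest bars are those of DPPA5 beyond the 3' end of the gene, at 22 and 28.1 fold, and no DPPA3 or DPPA4 bar crosses the start.

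By the authors' assignment, distal peaks found in both lists were present at 3 of the 10 genes, 6 regions in all. These were DPPA3 (3 regions), DPPA5 (2) and ZFP42 (1). Of coding genes, 20.4% had 1 or more. Replicate 1 by itself listed 16 distal peaks for the 10 genes and replicate 2 listed 8. DPPA3, DPPA5, UTF1 and ZFP42 had promoter and distal peaks in each list, and in 3 of these 4 (DPPA3, DPPA5 and ZFP42) the strongest distal peak exceeded the strongest promoter peak in both. Among 3666 coding genes with both kinds of peak in each list, 20.8% had this order. At DPPA3 the strongest distal peak lay past the 3' end in replicate 1 (4.50 fold) and inside the gene in replicate 2 (4.06 fold). Both were under the list median of 4.51 fold. The region inside the gene was 3157 and 3180 bp from a start by the authors' distance, just over the 3 kb limit. UTF1 was the exception through the class of its upstream region, which was distal in replicate 1 and promoter in replicate 2. That region, at 11.5 and 12.7 fold, exceeded the UTF1 peak over the start, at 9.11 and 11.2 fold, in both lists. With 4 genes the share was not compared with that of all genes.

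At start sites the 10 genes were divided. A peak covered the RefSeq start in both lists at 6 genes (DPPA5, L1TD1, TERT, UTF1, ZFP42 and ZSCAN10), in replicate 2 alone at DPPA2 and ZNF281, and in neither list at DPPA3 and DPPA4. At ZNF281 the replicate 1 peak ended at 200410023, just short of the start at 200410036. For DPPA4 the statement holds only for the start used here, because a region found in both lists covers the upstream end of its RefSeq extent. Of 15811 coding genes with a RefSeq window, 59.1% had a peak over the start in both lists. At 5 of the 6 genes, all but ZFP42, the strongest summit lay inside the gene in both lists, as at 69.8% of the 9337 genes with such peaks. Over those genes the summit lay a median of 211 bp inside the gene in replicate 1 and 212 bp in replicate 2. The summits of TERT, ZSCAN10 and L1TD1, between 242 and 284 bp, fell near this position and within the middle range of all genes (-3 to 300 bp in replicate 1 and -3 to 304 bp in replicate 2). Those of UTF1, at 452 and 714 bp, lay beyond this range in both lists. The DPPA5 summit lay beyond it in replicate 1 (425 bp) and within it in replicate 2 (20 bp).

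**Figure D3:**
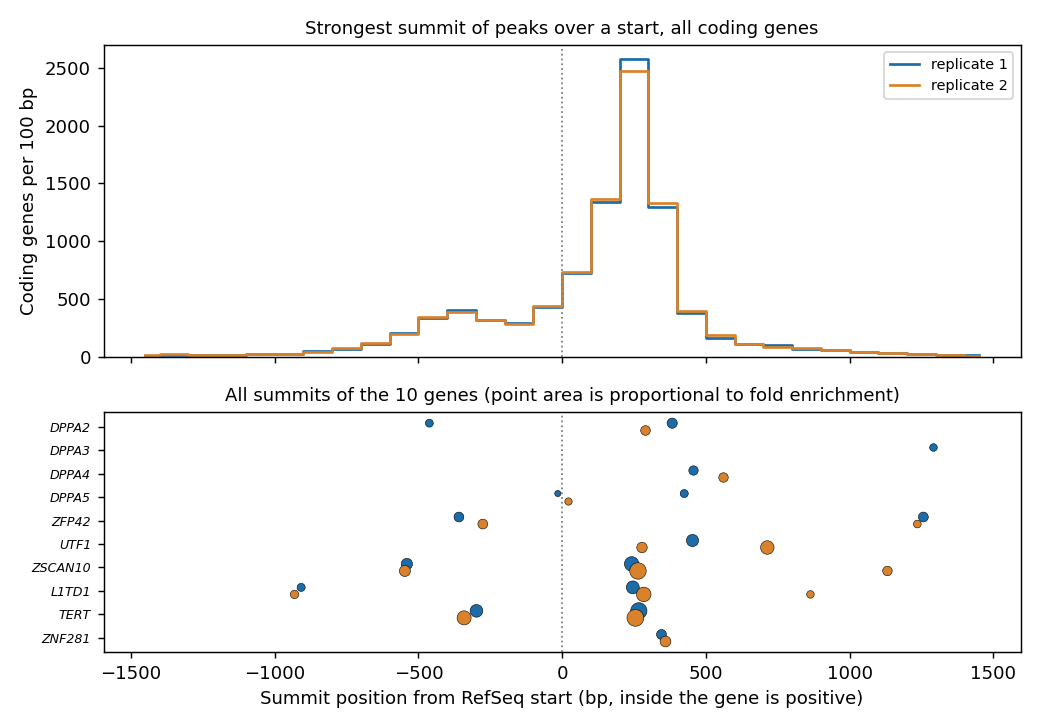
Top, number of coding genes per 100 bp by the position of the strongest summit of the peak over their start (horizontal axis, bp from the RefSeq start, inside the gene positive), for replicate 1 in blue and replicate 2 in orange; bottom, every summit of the 10 genes within 1500 bp of the start, with point area proportional to fold enrichment. The distribution peaks inside the gene, and the large points of TERT, ZSCAN10 and L1TD1 lie between 242 and 284 bp.

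The base composition of the window also differed among the 10 genes. G and C made up 38.3% of the DPPA3 window and 45.3% of the DPPA4 window, the lowest of the 10 and the genes with no peak over the start used here. DPPA2 followed with 51.3%, ZSCAN10 with 55.3%, L1TD1 with 58.0% and ZNF281 with 63.3%. DPPA5 (66.0%), ZFP42 (69.3%), UTF1 (71.7%) and TERT (77.3%) were highest. The order of composition was not that of the peaks. ZSCAN10 and L1TD1 had stronger peaks over the start in both lists than DPPA5 and ZFP42, whose windows had more G and C. ZNF281 had a peak over the start in replicate 2 alone. Its replicate 1 peak ended at 200410023, just short of the RefSeq start at 200410036, and the authors gave it a distance of 0 from a start. Over all coding genes a peak over the start in both lists was found for 2.16% of 927 windows under 40% G and C, 19.0% of 1023 windows from 45 to 50%, and 86.8% of 4132 windows at 70% or more. The part of base composition in the pattern of the 10 genes was not tested. Among genes with such a peak, the median fold enrichment per bin of composition lay between 7.79 and 9.44 in replicate 1. The weak DPPA5 and ZFP42 start peaks, in windows rich in G and C, lay below that range.

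**Figure D4:**
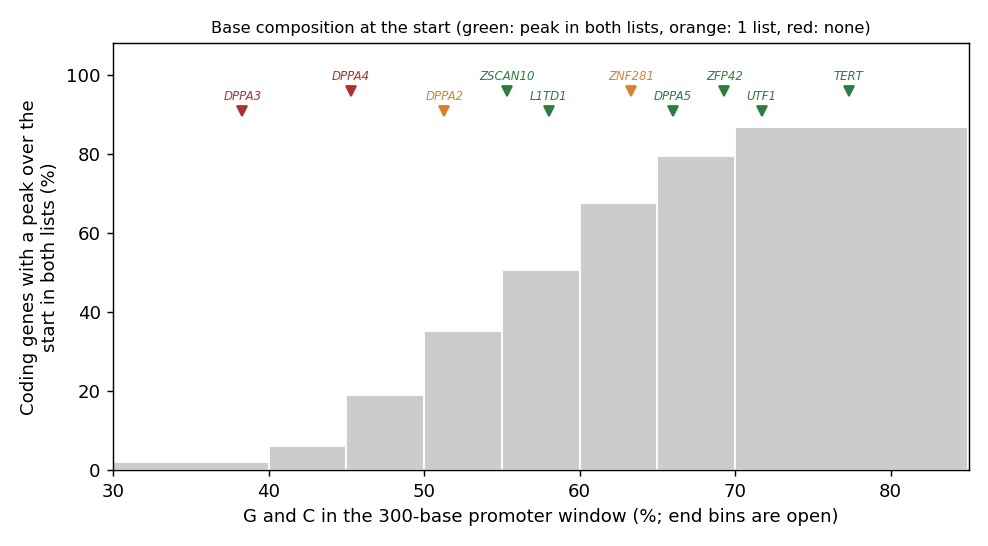
Share of coding genes with a peak over the RefSeq start in both lists (vertical axis, %) by the share of G and C in the 300-base window (horizontal axis, %), with the 10 genes marked at their own composition, green for a peak over the start in both lists, orange for 1 list and red for neither (the height of a marker has no meaning). The bars rise from 2.16% to 86.8%, and DPPA3 and DPPA4 stand furthest to the left of the 10 genes. Each gene is marked by the 1 RefSeq start used here.

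In replicate 1, 23 of 34 peaks overlapped a replicate 2 peak (67.6%, Wilson 95% interval 50.8 to 80.9), and in replicate 2, 20 of 24 overlapped a replicate 1 peak (83.3%, 64.1 to 93.3). Over all peaks the shares were 74.5% and 73.9%, inside each interval, and the intervals cover counting error only. At or above percentile 50 all 16 of 16 peaks in replicate 1 and 13 of 13 in replicate 2 were shared. All peaks of that strength were shared at 94.2% and 94.8%. Under percentile 50, 7 of 18 peaks of the 10 genes in replicate 1 (38.9%, Wilson 95% interval 20.3 to 61.4) and 7 of 11 in replicate 2 (63.6%, 35.4 to 84.8) were shared, against 54.8% and 53.2% of all such peaks. The peaks without a counterpart reached at most 3.97 fold (L1TD1, percentile 39.4) in replicate 1 and 3.64 fold (ZFP42, percentile 30.2) in replicate 2. They numbered 11 and 4, and ZFP42 held 5 of the 11.

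Merged across lists, the peaks formed 35 regions, of which 20 were in both lists, 11 in replicate 1 alone and 4 in replicate 2 alone. Of the 20, 13 were promoter regions in both lists, 6 were distal in both and 1, upstream of UTF1, was mixed. The strongest summits of the lists lay a median of 85 bp apart (12 to 1533 bp), and at most 100 bp apart in 11 regions. The widest gaps were at the ZFP42 promoter (1533 bp), the upstream ZSCAN10 region (779 bp) and the upstream DPPA3 region (725 bp).

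**Figure D5:**
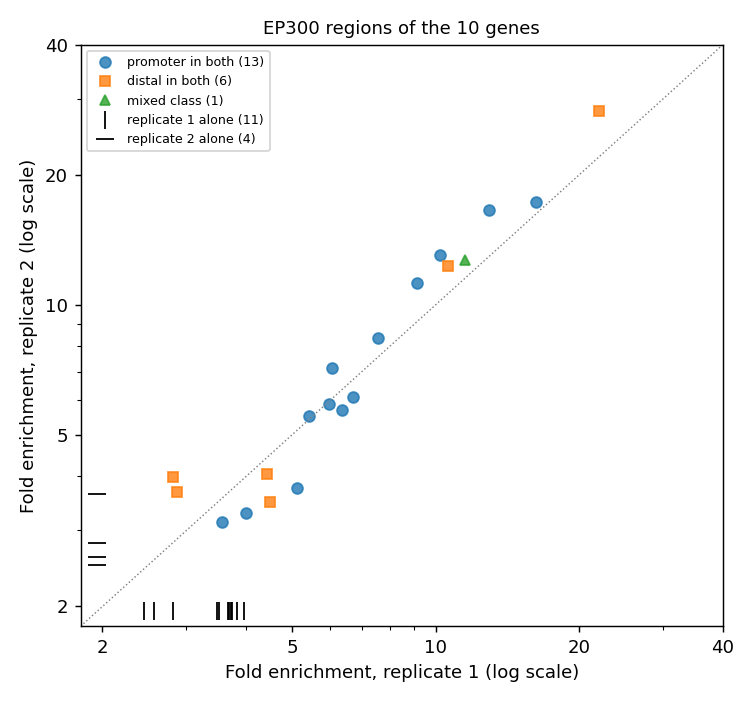
Fold enrichment of the 35 merged regions of the 10 genes in replicate 1 (horizontal axis) and replicate 2 (vertical axis), both on log scales, with the dotted line marking equal values; circles are promoter regions, squares distal regions, the triangle the mixed region, and ticks along the axes are regions of 1 list alone. The DPPA5 distal region stands at the top right (22 and 28.1 fold), and all ticks lie at or below 3.97 fold.

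A wider list of 24 other pluripotency genes, chosen with earlier results of these data known, gave a setting for the 10. All 24 of 24 had a promoter peak in both lists, against 67.7% of coding genes, and 14 had a distal peak in both, against 20.4%. Their median promoter percentiles were 86.8 and 84.5, above the 71.7 and 71.5 of the 10 genes. Ordered by the lower of the percentiles in the lists, the highest were NODAL, a signalling ligand (25.9 and 28.0 fold), TFAP2C, a transcription factor of the naive state (22.4 and 27.1), LIN28A, an RNA-binding protein (21.0 and 23.9), and PRDM14, a chromatin regulator (16.2 and 20.9). In replicate 1 alone POU5F1, at 16.9 fold, lay above PRDM14. TERT lay near PRDM14 in replicate 1 and below it in replicate 2. The DPPA5 distal peak, at 22 and 28.1 fold, lay below the NODAL and TFAP2C promoter peaks in replicate 1 and above both in replicate 2.

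By the pair of log2 fold enrichments of the strongest promoter peak, the coding genes nearest to TERT among 13614 were ENOPH1 (16.2 and 17.3 fold) and ZNF254 (16.1 and 17.3). Those nearest to ZSCAN10 were HFE (12.9 and 16.7) and SDHAF4 (12.8 and 16.5). Those nearest to L1TD1 were COG7 (10.1 and 13.0) and KIF22 (10.2 and 13.0). The likeness rests on only 2 lists.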

How the data were processed

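EP300 ChIP-seq peaks of 2 samples of naive H9 cells were analysed. No table of the input alone was used here. The peak names in the deposited tables pair each sample with the input, so peaks were called per sample. The submitters' processing notes name GRCh38 and fastp 0.19.11, with no role given. For the aligner, the peak caller and its threshold, nothing is given in the sources used here. ChIPseeker had assigned each deposited peak to 1 gene, as the titles of the authors' tables say.

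The strength is the deposited signal value of the narrow peak format, per the file headers. It was read as the authors' fold enrichment of each summit, a ratio, which no source used here states in words, and it only describes and ranks peaks within a list. The deposited p-values and q-values are on the -log10 scale, per the file headers, and no q-value exceeded 0.0497 (replicate 1) or 0.0498 (replicate 2). The score, per the file headers a further deposited column, follows the q-value and was not used. Depth is unknown.

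Peaks on chromosomes 1 to 22 and X were used. For rows of equal interval the summit of highest fold enrichment stood for the joined peak, with the largest -log10 q-value among them. Peaks were shared if they overlapped by at least 1 bp. Distal means outside the authors' promoter class of 3 kb. Ties took their mean percentile. Coding genes were matched to the tables by RefSeq symbol or a single synonym (15443 of 19970 found in the tables), and the rest counted as without peaks, so shares of coding genes may be too low. Start sites and sequences came from RefSeq (GRCh38.p14), which gave windows for 15811 coding genes. Python 3.11.15 with pandas 2.3.3 and scipy 1.17.1 was used, and the joining and overlap code was tested on simulated data.

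The genes and lists were chosen with earlier results of these data known. Named are the 10 genes, genes within 100 kb of them, and the 4 highest and the lowest other pluripotency genes. Also named are any of that list without a promoter peak, and for the 3 strongest promoters the 2 nearest in strength. The bins of base composition were chosen after the values were seen. Alternatives changed the overlap, threshold, promoter class, gene assignment, ranking and replicates used.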

Additional observations from a re-analysis of the deposited data

How the results depend on the processing

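All 10 genes kept a promoter peak in both lists with an overlap of 50%, by position and from either list alone. DPPA3 lost its peak, leaving 9, at a fold enrichment of at least 5, with -log10 q at 5 or above and within 1 kb. The distal regions of the 10 genes, 6 in both lists, were 2 at a fold enrichment of at least 5 and 3 with -log10 q at 5 or above. They were 8 to 16 from 1 list alone, and 111 when every region within 100 kb was counted whatever its assigned gene. That count by position is made per gene, so a region near both DPPA2 and DPPA4 counts for each. The share of their peaks found in the other list, 74.1% over both lists, was 96.6% and 89.2% under the stricter filters on fold and q-value. Their median promoter percentile, 71.6 as the mean of both lists, was 73.9 and 73.2 under these filters, 72.6 within 1 kb, 77.6 when ranked by q-value and 57.4 among promoter peaks alone. DPPA5 fell from percentile 70.7 to 29.3 within 1 kb. The share of coding genes with a promoter peak in both lists, 67.7%, was 55%, 63.4% and 66.2% under the fold, q-value and 1 kb settings, 74.6% by position, and 70.7% from either list alone. For the 24 other pluripotency genes, distal regions numbered 41, and 13, 24, 91 and 56 to 63 under the fold, q-value, position and single list settings. The position setting needs a RefSeq window, which 11 of these 24 genes and 15811 coding genes had. Its values of 91 and 74.6% are thus not over the same genes as 41 and 67.7%. By position 8 of the 11 with a RefSeq window had a promoter region, so 3 examined genes lost theirs when position replaced the authors' assignment. No paired analysis was possible because there is 1 group of EP300 samples. Unknown depth limits what can be said of peaks missing from 1 list.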
